A study of Mus musculus with 6 samples.

Results

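A set of 43 genes marks or serves the macrophages, lymphocytes and granulocytes of the mouse uterus; they were taken by name from a list of leukocyte genes. They fall into 2 pan-leukocyte genes, 19 macrophage and monocyte genes, the macrophage growth factor *Csf1*, 4 T cell genes, 8 natural killer (NK) and cytotoxic genes, 2 B cell genes, 5 granulocyte genes and 2 mast cell genes, among 20145 genes that the array names. *Cd68* had no probe that could be named, and the probes of *Cd163* and *Ms4a1* were not well above background on any array. The other 40 genes were tested, and 39 of them were well above background on all 6 arrays. The exception was *Cd8a*, which was above it on 1 *Sox17* f/f and 2 *Sox17* ed/ed arrays.

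RNA came from whole uterine horns of female mice on gestation day (GD) 3.5, the third day after the plug of GD 0.5, with the embryos flushed out. The control group, *Sox17* f/f, held 3 mice with both copies of *Sox17* flanked by loxP sites and no Cre; the genotype field of these samples reads WT. The *Sox17* ed/ed group held 3 littermates with the same floxed alleles and 1 copy of *Ltf* iCre (LtfiCre/+ Sox17 f/f), a knock-in that is active in uterine epithelium from puberty on. All dams were mated at 8 to 10 weeks of age with males of proven fertility. The Cre driver was carried by the *Sox17* ed/ed mice alone, so loss of *Sox17* and the presence of the driver cannot be told apart. *Ltf* encodes lactoferrin, which neutrophils also make. The question put to the data was which leukocyte transcripts of the whole organ differed when the epithelium lacked *Sox17*.

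The uterus before implantation holds macrophages and dendritic cells in its stroma, NK cells that expand and fill with granules once the decidua forms, and varying numbers of granulocytes, mast cells, T cells and B lineage cells, whose entry follows estrogen and progesterone. Macrophages sense their surroundings through receptors such as Cd14 and the Fc receptors, live on the growth factor Csf1 through its receptor Csf1r, and clear debris with the help of complement C1q. NK cells and cytotoxic T cells kill with perforin, which opens the target cell, and granzymes, the serine proteases that enter through it. In RNA from a whole organ, fewer cells of a type and less RNA per cell cannot be told apart.

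The regulatory sequence just upstream of some of the genes that moved is printed first, since the lower genes *Fcgr1*, *Mrc1* and *Kit* share a short motif in it and the higher genes *Gzmb* and *Gzmc* are neighbours of 1 protease family. Each line holds the 250 bases before the RefSeq start of the gene, read 5′ to 3′ on the strand of the gene in build GRCm38.p6. Capitals mark the letters GAGGAAG, or CTTCCTC where the motif lies on the other strand, which are the core bound by PU.1 (*Spi1*), the ETS factor of myeloid cells. *Fcgr1* lies on the minus strand, at chr3:96293970-96294219. *Mrc1* at chr2:14229164-14229413 and *Kit* at chr5:75574737-75574986 lie on the plus strand, and *Gzmb* at chr14:56262335-56262584 and *Gzmc* at chr14:56234658-56234907 on the minus strand.
Fcgr1: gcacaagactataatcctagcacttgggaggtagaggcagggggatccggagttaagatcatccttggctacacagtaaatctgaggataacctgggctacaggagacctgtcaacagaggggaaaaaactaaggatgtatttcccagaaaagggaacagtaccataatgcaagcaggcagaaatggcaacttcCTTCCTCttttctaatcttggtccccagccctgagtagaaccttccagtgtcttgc
Mrc1: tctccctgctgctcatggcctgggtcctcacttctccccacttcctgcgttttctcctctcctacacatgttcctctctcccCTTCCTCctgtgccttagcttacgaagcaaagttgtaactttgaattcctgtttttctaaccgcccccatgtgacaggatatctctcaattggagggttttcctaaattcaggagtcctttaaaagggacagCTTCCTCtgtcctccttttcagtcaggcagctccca
Kit: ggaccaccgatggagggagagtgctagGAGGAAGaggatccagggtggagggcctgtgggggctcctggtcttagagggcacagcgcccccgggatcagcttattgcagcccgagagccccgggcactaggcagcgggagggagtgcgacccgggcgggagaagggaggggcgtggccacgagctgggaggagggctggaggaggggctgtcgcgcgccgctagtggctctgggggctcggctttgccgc
Gzmb: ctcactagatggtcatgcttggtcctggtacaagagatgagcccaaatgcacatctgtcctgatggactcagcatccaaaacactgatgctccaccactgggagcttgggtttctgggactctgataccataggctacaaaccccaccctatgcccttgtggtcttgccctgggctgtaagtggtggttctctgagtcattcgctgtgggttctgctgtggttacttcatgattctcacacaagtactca
Gzmc: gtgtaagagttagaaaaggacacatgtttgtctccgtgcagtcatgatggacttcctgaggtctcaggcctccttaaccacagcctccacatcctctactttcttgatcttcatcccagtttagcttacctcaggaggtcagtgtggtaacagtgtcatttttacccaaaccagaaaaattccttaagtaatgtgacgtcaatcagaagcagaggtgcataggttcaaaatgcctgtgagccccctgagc

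The motif begins 56 bases before the start of *Fcgr1*, 223 before that of *Kit*, and 168 and 36 before that of *Mrc1*. Searched on both strands, GAGGAAG was found in 12 of the 34 member promoters that the RefSeq table holds (35.3%), against 3244 of 27025 promoters of the same length in all (12%). Besides *Fcgr1*, *Mrc1* and *Kit*, its holders were 9 genes that did not pass the test, among them *C1qc*, *Csf3r* and *Mpo*. The letters ATTGTT, the core of the SOX family motif, were found in 6 member promoters (17.6%) against 10.9% of all promoters. They were in none of the 6 promoters of genes that passed the test, too few to read anything from their absence. Among the members, *Fcgr3* held both motifs. These matches describe letters in a window and say nothing about binding. Over their 250 bases, *Gzmb* and *Gzmc* could be aligned with 145 identical bases in 289 columns (50.2%). Aligned in the same way, *Fcgr1* and *Mrc1*, which lie on different chromosomes, had 139 identical bases in 303 columns (45.9%). The granzyme value lay near that of this pair, so it is no sign of shared promoter sequence. The RefSeq table has no promoter for *Adgre1*, *C1qa*, *Cd14*, *Cd4*, *Csf1r*, *Il2rb*, *Lst1*, *Ms4a1* and *Tyrobp*.

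The targeted gene separated the genotypes as labelled. On the log2 scale of normalized signal, the brighter *Sox17* probe read 12.22, 12.07 and 12.22 on the *Sox17* f/f arrays and 9.75, 9.58 and 9.80 on the *Sox17* ed/ed arrays, a log2 fold change of -2.45 (SE 0.09), and the other probe gave -2.98. Spots well above background made up 60.7% to 65.7% of each *Sox17* f/f array and 56.8% to 59.4% of each *Sox17* ed/ed array. *Sox17* f/f replicate 3 had the highest share, where the other controls had 60.7% and 61.5%. Its median signal before normalization, 49.6, was also the highest of the 6 arrays. The arrays of each genotype lay on a line of the slide of their own, so position and genotype cannot be told apart. Of the marker lists for other cells, 0 of 10 stroma genes and 1 of 8 smooth muscle genes were called by limma. Called too were 2 of 8 endothelium genes and 6 of 10 epithelium genes. On the log2 scale, the epithelium genes *Krt19* (2.10), *Krt7* (1.46), *Krt8* (0.69) and *Cdh1* (0.58) were higher. *Cldn3* (-1.16) and *Cldn7* (-0.72) were lower, and 4 were not called, *Epcam* (0.09) among them. An unadjusted p under 0.05 was found for 4 stroma, 5 smooth muscle, 7 endothelium and 6 epithelium genes, against 5045 of all 14856 genes tested. The smooth muscle list had a median log2 fold change of -0.28, with 6 of 8 genes below 0. The mean log2 level of the epithelium list ran from 10.99 to 11.22 on *Sox17* f/f arrays and from 11.18 to 11.46 on *Sox17* ed/ed arrays, and the part of these cells in the results was not tested.

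Of the 40 leukocyte genes tested, 27 differed by less than 1.4-fold between the genotypes. A gene was called when its limma p was under 0.01 before adjustment and its change at least 1.4-fold, which is 0.485 on the log2 scale. By this rule 7 of the 40 genes tested were called (17.5%), against 12.5% of all 14856 genes tested. *Kit*, *Fcgr1*, *Cd14* and *Mrc1* were lower in *Sox17* ed/ed uteri, 4 of 40 against 6.58% of all genes, and *Gzmb*, *Gzmc* and *Nkg7* were higher, 3 of 40 against 5.9%. These shares of all genes are also the background for the counts of each list below. An adjusted p under 0.05, with no limit on the fold, took in 9 members (22.5%) against 19% of all genes, adding *Csf1r* and *C1qc*; 4 were higher and 5 lower, against 8.66% and 10.3%. The arrays of the genotypes did not overlap for 17 members (42.5%) against 40.8% of all genes, 7 of them higher (19.3% of all genes) and 10 lower (21.5%), so on this count the leukocyte genes lay near the rest of the array. The median log2 fold change was 0.03 over the members and -0.01 over all genes, whereas the median size of the change without its sign was 0.28 and 0.17. The spread was also wider: the median SD of a member was 0.13 among *Sox17* f/f arrays and 0.19 among *Sox17* ed/ed arrays, against 0.11 in both groups for all genes (n = 3 arrays each). Of the 33 members that were not called, 16 had a 95% confidence interval of the difference that stayed within 1.4-fold on both sides, and the intervals of the other 17 reached past it.

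**Figure D1:**
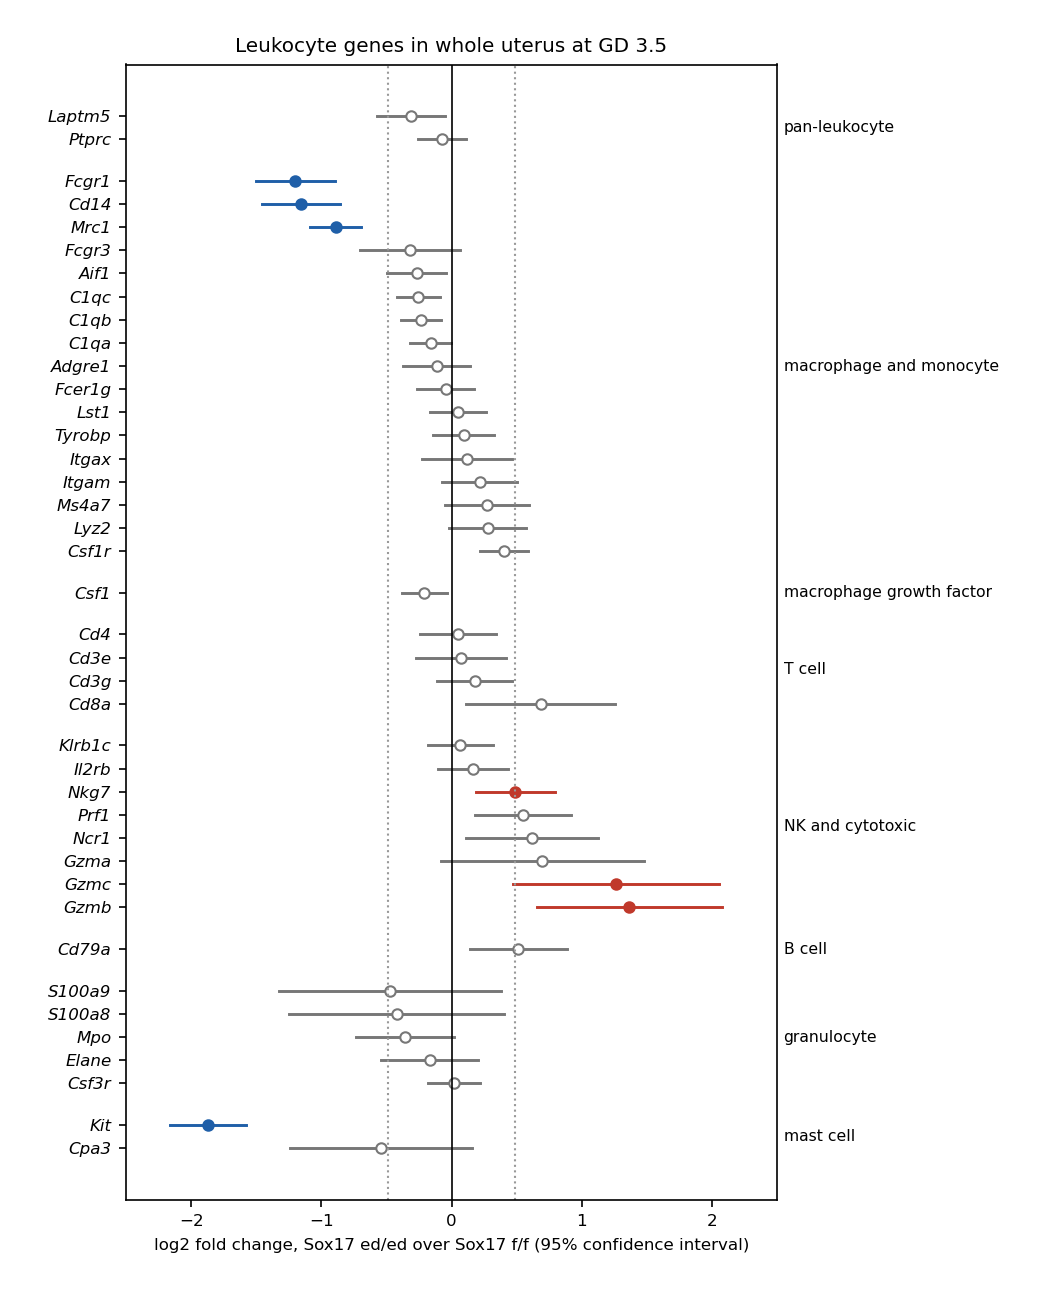
Log2 fold change of the 40 tested leukocyte genes in Sox17 ed/ed over Sox17 f/f uteri (n = 3 arrays each), by lineage, with the 95% confidence interval from limma as a line and the 1.4-fold limits dotted. Filled points passed the test (4 lower in blue, 3 higher in red) and open points did not; the lower genes run from -1.87 (Kit) to -0.89 (Mrc1), and all 8 NK and cytotoxic genes lie above 0.

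The pan-leukocyte gene *Ptprc* encodes CD45, the phosphatase on the surface of nucleated blood cells. It read 8.43, 8.62 and 8.44 on the *Sox17* f/f arrays and 8.42, 8.45 and 8.40 on the *Sox17* ed/ed arrays, with overlapping groups. Its log2 fold change of -0.07 had a 95% interval of -0.26 to 0.11, inside the 1.4-fold limits. *Laptm5*, a lysosomal membrane protein of blood cells, had a log2 fold change of -0.31 (SE 0.11, limma adjusted p = 0.0975), and its second probe gave -0.32. Of 16 further genes common to leukocytes, among them *Itgb2* and *Coro1a*, 0 were called by limma. An unadjusted p under 0.05 was found for 3 of these 16, against 5045 of all 14856 genes. Without *Sox17* ed/ed replicate 3, 1 was called. Their log2 fold changes were above 0 for 12 of the 16, with a median of 0.14.

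Among the macrophage and monocyte genes, 3 of 17 were called, all lower, where 6.58% of all genes were called lower. The other 14, *Adgre1*, *Csf1r* and *Aif1* among them, were not called. The arrays of the genotypes did not overlap for 7 of the 17 that were lower and 1 that was higher. Of all genes, 21.5% were lower and 19.3% higher without overlap. *Fcgr1* encodes the high-affinity receptor for IgG, CD64. It read 8.33, 8.33 and 8.59 on the *Sox17* f/f arrays and 7.41, 7.21 and 7.03 on the *Sox17* ed/ed arrays. The lowest control array stood well above the highest *Sox17* ed/ed array, and the gene was 2.30-fold lower, with a log2 fold change of -1.20 (SE 0.12, limma adjusted p = 0.00154). *Cd14*, the coreceptor for lipopolysaccharide, read 11.27, 11.37 and 11.40 against 10.36, 9.94 and 10.28. The *Sox17* f/f arrays lay close together and all 3 *Sox17* ed/ed arrays lay below them, at a log2 fold change of -1.16 (SE 0.12, limma adjusted p = 0.00167). Epithelial cells can make *Cd14* as well, and the study lists it among genes associated with the uterine epithelium. The epithelium list, with 4 genes called higher and 2 lower, moved in the same arrays. Its part in the *Cd14* result was not tested.

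*Mrc1*, the mannose receptor CD206 of tissue-resident macrophages, read 10.84, 10.87 and 10.69 on the *Sox17* f/f arrays and 9.84, 9.91 and 9.99 on the *Sox17* ed/ed arrays. Replicates differed by at most 0.18, and the genotypes by a log2 fold change of -0.89 (SE 0.08, limma adjusted p = 0.000848), a 1.85-fold decrease. *Mrc1* is also made by some endothelium. The endothelium list was below 0 for 7 of 8 genes with a median of -0.35, and its mean level ran from 10.63 to 10.76 in controls and from 10.42 to 10.45 in *Sox17* ed/ed uteri; its part in the *Mrc1* result was not tested. *Lyve1*, which marks lymphatic vessels and some resident macrophages, had a log2 fold change of 0.01. The other resident macrophage genes measured, *Folr2* (-0.42), *Cd209a* (-0.14) and *Cd209f* (0.49), were not called, and *Cd163*, *Timd4* and *Vsig4* were not tested.

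**Figure D2:**
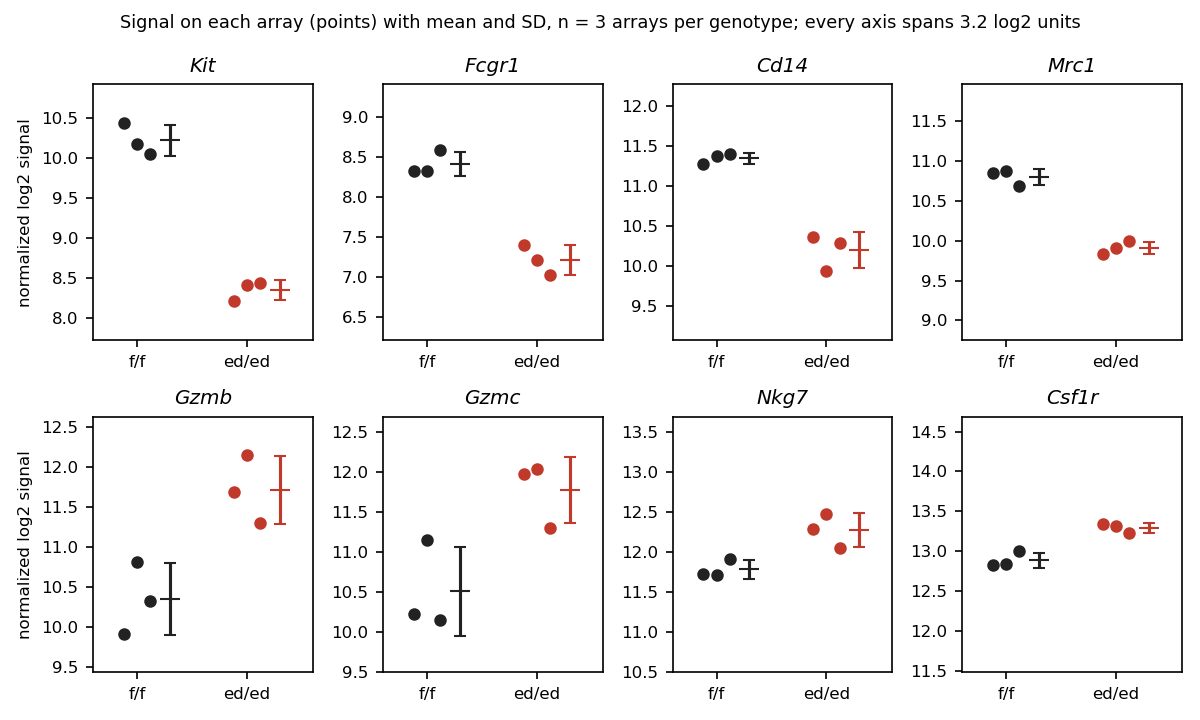
Normalized log2 signal of the 7 genes that passed the test and of Csf1r on each array, with Sox17 f/f in black and Sox17 ed/ed in red; points are single arrays, and the bar beside them is the mean with its SD (n = 3). Every axis spans the same number of log2 units. Kit, Fcgr1, Cd14 and Mrc1 are lower in all 3 Sox17 ed/ed arrays, and the granzymes are higher with a wider spread, from 9.90 to 10.81 for Gzmb in controls.

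The other 14 macrophage genes tested were not called, with log2 fold changes from -0.32 to 0.41. *Adgre1*, the classical surface marker of mouse macrophages, read 10.28, 10.37 and 10.54 in controls and 10.18, 10.22 and 10.45 in *Sox17* ed/ed uteri. These ranges overlapped, and the change of -0.11 had a 95% interval of -0.37 to 0.14. *Tyrobp* and *Fcer1g*, the signalling adaptors of many myeloid receptors, had log2 fold changes of 0.09 and -0.04, with intervals inside the 1.4-fold limits. *Lst1* (0.05) and *Itgax* (0.12), the integrin CD11c of dendritic cells and some macrophages, also had intervals inside these limits. *Fcgr3*, the low-affinity IgG receptor (-0.32), *Lyz2*, lysozyme (0.28), and *Ms4a7* (0.27) had intervals that reached past 1 of the limits. *Itgam*, the integrin CD11b, had 3 tested probes that gave 0.22, -0.28 and -0.01, so no direction can be given for it.

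The receptor *Csf1r* and its ligand *Csf1* lay on opposite sides of 0. *Csf1r* read 12.83, 12.84 and 13.00 on *Sox17* f/f arrays and 13.34, 13.32 and 13.23 on *Sox17* ed/ed arrays. The groups did not overlap, and the log2 fold change of 0.41 (SE 0.08, limma adjusted p = 0.0155) was past the adjusted threshold and short of 1.4-fold; its other probes gave 0.39 and 0.16. *Csf1* read 9.86, 9.73 and 9.90 against 9.61, 9.65 and 9.60, a change of -0.21 (limma adjusted p = 0.0928), and its other probes gave -0.32 and -0.27. *Il34*, the second ligand of this receptor, had a log2 fold change of 0.13.

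The genes of the C1q subunits, which macrophages make in most tissues, were each a little lower without overlap between the groups. *C1qa* had a log2 fold change of -0.16, *C1qb* one of -0.23 and *C1qc* one of -0.26, and only *C1qc* had a limma adjusted p under 0.05 (0.0486). The 3 genes lie side by side in the genome, so they are not independent readings. *Aif1*, the actin-binding protein Iba1, was lower by a similar amount, at -0.27 (limma adjusted p = 0.0993).

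The wider macrophage and monocyte list of 35 tested genes outside the members held 7 called lower and 2 called higher, with a median of -0.09. Of all genes, 6.58% were called lower and 5.9% higher. Lower were the scavenger receptor *Msr1* (-1.60), well above background on 1 *Sox17* ed/ed array, the secreted macrophage protein *Cd5l*, which was below background in *Sox17* ed/ed uteri and at least 3.40-fold lower, the IgG receptor *Fcgr4* (-1.05), the inhibitory receptor *Pirb* (-0.96) and the C-type lectin *Clec4n* (-0.96). *Cd33* was higher (0.88). *Spi1*, which encodes PU.1, had a log2 fold change of 0.10 (limma adjusted p = 0.754). The 4 measured genes of the phagocyte NADPH oxidase were not called by limma. An unadjusted p under 0.05, found for 5045 of all 14856 genes, was found for 2 of them, *Cybb* (0.33) and *Ncf1* (0.35). Genes for Fc receptors, put together after their values were seen, were below 0 in 6 of 6 cases: *Fcgr1*, *Fcgr4*, *Fcgr2b* (-0.67) and *Fcer1a* (at least 1.33-fold lower, being below background in *Sox17* ed/ed uteri) were called, and *Fcgr3* and *Fcer1g* were not. The call of *Fcer1a* rests on fitted values below background, and its bound does not reach 1.4-fold. That of *Fcgr2b* was lost in an ordinary linear model and without *Sox17* f/f replicate 1 or *Sox17* ed/ed replicate 1 or 3.

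**Figure D3:**
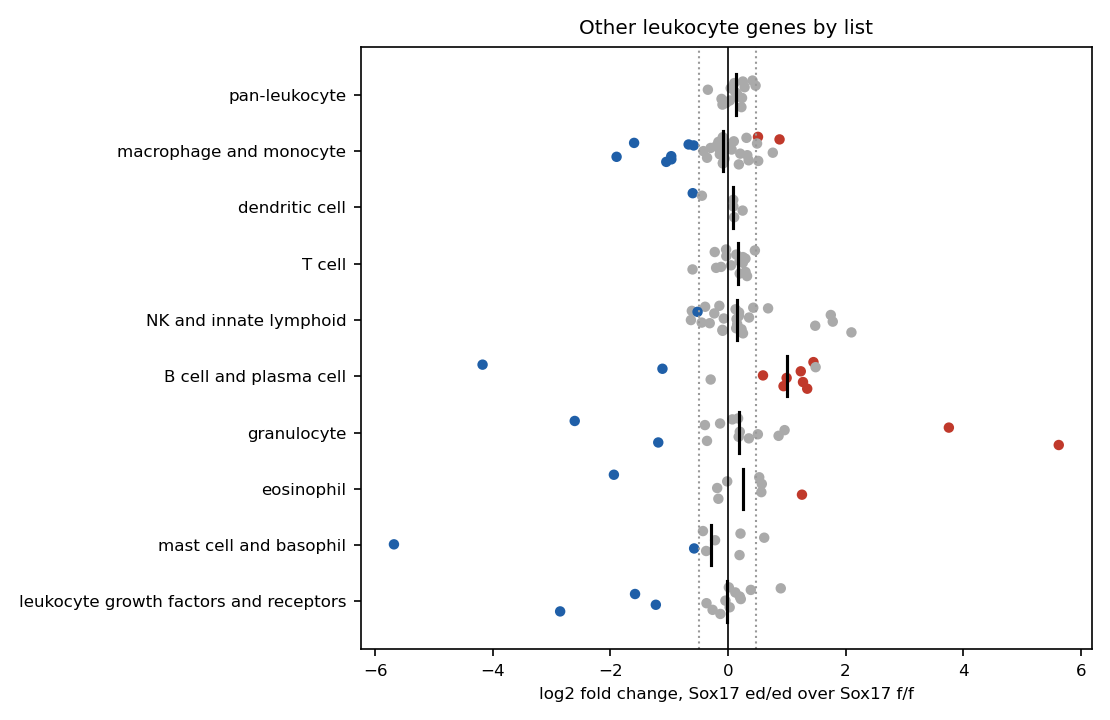
Log2 fold change in Sox17 ed/ed over Sox17 f/f uteri of 156 tested leukocyte genes outside the 43, each point a gene, by list, with the list median as a black bar and the 1.4-fold limits dotted; blue and red points passed the test as lower (19) and higher (12). Of all genes tested, 6.58% were called lower and 5.9% higher. The B cell and plasma cell list has its median at 0.998, and the other medians lie between -0.30 and 0.26. Points for Fcmr, Csf3, Cd5l, Fcer1a, Klrk1 and Prtn3 are fitted values of genes below background in Sox17 ed/ed uteri.

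The 3 members called higher all belong to the NK and cytotoxic group of 8, where 5.9% of all genes were called higher. All 8 NK and cytotoxic genes had a log2 fold change above 0, with a median of 0.59, and the other 5 were not called. *Gzmb* read 9.90, 10.81 and 10.32 on *Sox17* f/f arrays and 11.69, 12.15 and 11.30 on *Sox17* ed/ed arrays. Replicates of a genotype differed by up to 0.90, yet the groups did not overlap, and the log2 fold change was 1.37 (SE 0.29, limma adjusted p = 0.0237), a 2.58-fold increase. *Gzmc* read 10.23, 11.15 and 10.14 against 11.98, 12.04 and 11.30. Its lowest *Sox17* ed/ed array stood only just above its highest control array, at a log2 fold change of 1.27 (SE 0.33, limma adjusted p = 0.0432). *Nkg7*, a protein of cytotoxic granules, read 11.72, 11.71 and 11.91 against 12.29, 12.48 and 12.05, a change of 0.49 (SE 0.13, limma adjusted p = 0.0424) that only just reached 1.4-fold, and its second probe gave 0.44.

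These 3 calls depended on single arrays. Without *Sox17* f/f replicate 3, *Gzmb* had a log2 fold change of 1.36 and *Gzmc* one of 1.08, and without *Sox17* ed/ed replicate 1 the values were 1.38 and 1.16; neither gene was called in either case. *Gzmc* was also lost without *Sox17* f/f replicate 1 (1.13) or *Sox17* ed/ed replicate 2 (1.13). *Nkg7* was lost without *Sox17* f/f replicate 1 (0.46) or 2 (0.45) and without *Sox17* ed/ed replicate 1 (0.48) or 2 (0.39). In an ordinary linear model without moderation none of the 3 was called, whereas the 4 lower genes were. The calls of *Kit*, *Fcgr1*, *Cd14* and *Mrc1* held when any 1 array was left out.

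The other cytotoxic genes fell short of the thresholds. *Prf1*, perforin, read 8.22, 8.65 and 8.30 against 8.94, 9.14 and 8.73, with a change of 0.55 and an unadjusted limma p of 0.0104, just outside the limit; it passed without *Sox17* f/f replicate 2 (0.68) or *Sox17* ed/ed replicate 3 (0.65). *Gzma* read 10.72, 11.30 and 11.93 in controls and 11.93, 12.37 and 11.75 in *Sox17* ed/ed uteri, and the groups overlapped through *Sox17* f/f replicate 3. Its change of 0.70 (SE 0.32, limma adjusted p = 0.185) became 1.004 and passed without that array. *Ncr1*, the NK receptor NKp46, read 7.12, 6.93 and 7.48 against 7.52, 8.17 and 7.71, a change of 0.62 (limma adjusted p = 0.0909). Genes of cell surface identity were not called either. *Il2rb*, a subunit of the IL-2 and IL-15 receptors, had a log2 fold change of 0.16, and *Klrb1c*, the NK1.1 antigen, one of 0.07, with a second probe at -0.14. Whether granule and surface genes differ in their response was not tested.

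Members of the granzyme cluster outside the 43 followed *Gzmb* and *Gzmc* in sign. The log2 fold changes were 1.48 for *Gzmd*, 1.75 for *Gzme*, 2.10 for *Gzmf* and 1.78 for *Gzmg*, and none was called by limma, with adjusted p between 0.103 and 0.243. *Gzme* read 9.52, 10.32 and 7.87 in controls and 11.29, 11.22 and 10.46 in *Sox17* ed/ed uteri, so *Sox17* f/f replicate 3 lay far below the other controls; the same array was the lowest control for *Gzmc*, *Gzmd*, *Gzmf* and *Gzmg*, and the highest for *Gzma* and *Gzmk*. For *Gzmf* and *Gzmg* that array was not well above background, so its distance from the other controls is not measured. Without it, an alternative chosen after the data were seen, the changes were 0.87 for *Gzmd*, 1.06 for *Gzme*, 1.16 for *Gzmf* and 0.61 for *Gzmg*, and *Gzmf* and *Gzmg* were then called, on 2 controls. *Gzmd* was called in 3 and *Gzme* in 4 of 18 alternatives. Both were called under normexp background correction, with the replicate number as a block and without *Sox17* f/f replicate 2. *Gzme* was also called with an intensity trend in limma, and *Gzmf* under normexp. These genes are close paralogs whose probes may share target RNA, so they cannot be counted as separate observations. *Gzmk* had a log2 fold change of -0.61 (limma adjusted p = 0.384).

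**Figure D4:**
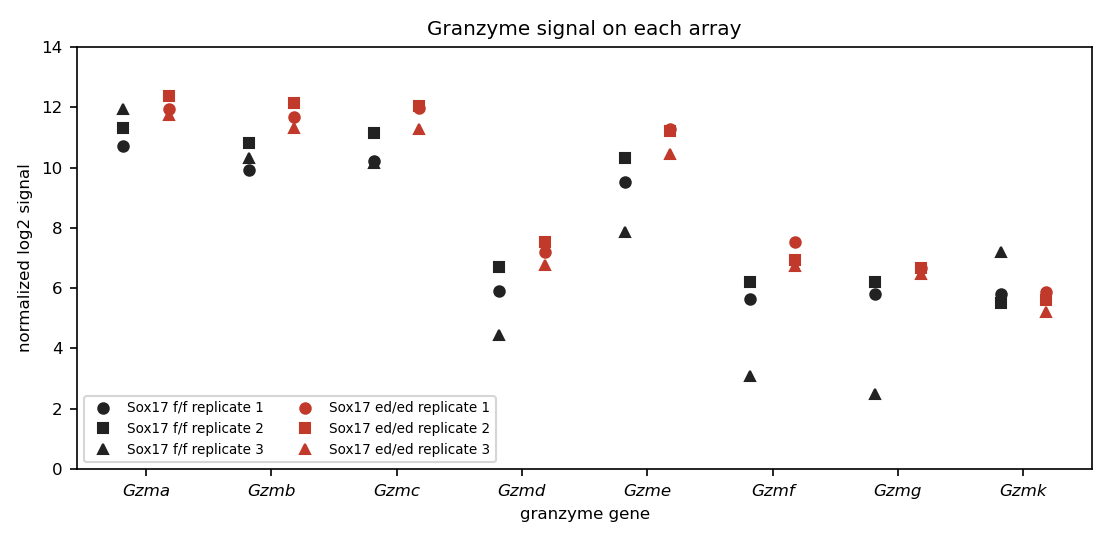
Normalized log2 signal of 8 granzyme genes on each array, with Sox17 f/f in black and Sox17 ed/ed in red and the replicate number given by the symbol. Levels can be compared between arrays for a gene and not between genes. The groups do not overlap from Gzmb to Gzmg, the triangle of Sox17 f/f replicate 3 is the lowest control from Gzmc to Gzmg, and it is the highest control for Gzma and Gzmk. For Gzmf and Gzmg that triangle is a spot not well above background.

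A group of 14 receptors and factors of NK cells was picked from the members and the wider list, *Klrb1c*, *Ncr1* and *Il2rb* included. Outside this group stood *Gata3* (0.68) and *Il18r1* (0.36, limma adjusted p = 0.0229), not called, and *Rora*, which was called. Of the 14 genes, 0 were called by limma and 3 had an unadjusted p under 0.05, against 5045 of all 14856 genes. Their log2 fold changes ran from -0.63 for *Klrb1b* to 0.62 for *Ncr1*, with a median of 0.10. *Klrk1*, the activating receptor NKG2D, was below background in *Sox17* ed/ed uteri and at least 1.196-fold lower (limma adjusted p = 0.0314), without overlap between the groups and short of the fold limit. *Eomes* and *Tbx21*, the T-box factors of NK cells, had log2 fold changes of -0.09 and 0.23, and the cytokine *Il15*, on which NK cells depend, one of 0.39 (limma adjusted p = 0.189). Of the 27 further NK and innate lymphoid genes, the 4 granzymes from *Gzmd* to *Gzmg* and *Gzmk* among them, 1 was called, the nuclear receptor *Rora* (-0.52); without *Sox17* f/f replicate 3 the count was 5, and without *Sox17* f/f replicate 1 it was 0.

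No T cell gene was called. *Cd3e*, a chain of the T cell receptor complex, read 9.50, 9.29 and 9.31 in controls and 9.59, 9.60 and 9.14 in *Sox17* ed/ed uteri, with wholly overlapping groups and a change of 0.08. *Cd3g* (0.18) and the coreceptor *Cd4* (0.05) had 95% intervals within the 1.4-fold limits, as *Cd3e* did. *Cd8a*, close to background, had a log2 fold change of 0.68 (SE 0.24, limma adjusted p = 0.0962), and it was called only without *Sox17* ed/ed replicate 1 (0.91); under normexp background correction the change was 0.15, and it was 0.49 in the deposited value table. Of the 4 T cell members and the 16 further T cell genes, 0 were called by limma. An unadjusted p under 0.05 was found for 1 of the members and 6 of the further genes, against 5045 of all 14856 genes. Without *Sox17* ed/ed replicate 2, 1 of the 16 was called.

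The B lineage was represented by *Cd79a* alone, since *Ms4a1* (CD20) was below background. *Cd79a*, a signalling chain of the B cell receptor, read 4.27, 4.46 and 4.57 in controls and 5.26, 4.73 and 4.86 in *Sox17* ed/ed uteri. The groups did not overlap, and its change of 0.51 (SE 0.15, limma adjusted p = 0.0673) was not called, except without *Sox17* ed/ed replicate 2 (0.62); it was 0.36 without *Sox17* ed/ed replicate 1 and 0.22 under normexp background correction. Its partner *Cd79b* was called, at 0.95. In the wider list of 11 B cell and plasma cell genes, 7 were called higher and 2 lower, against 5.9% and 6.58% of all genes. The higher ones included *Jchain*, the joining chain of secreted IgA and IgM, *Mzb1* and *Pou2af1*, both of antibody-secreting cells, and the adaptor *Blnk*.

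*Jchain* read 12.03, 12.41 and 13.19 in controls and 13.70, 13.82 and 13.94 in *Sox17* ed/ed uteri. The change was 1.28 on the log2 scale (SE 0.28, limma adjusted p = 0.0271). The call of *Jchain* was lost without *Sox17* f/f replicate 2, when any 1 *Sox17* ed/ed array was left out, and in an ordinary linear model. All 3 *Sox17* ed/ed arrays stood close together above controls that spanned 1.16, and *Sox17* f/f replicate 3 was again the control farthest from the others. Of the controls that array was also the highest for *Mzb1* (1.24) and *Pou2af1* (1.35), whereas *Blnk*, at 1.45 (SE 0.07, limma adjusted p = 6.57e-05), did not share the wide spread. *Mzb1* was not called without *Sox17* ed/ed replicate 3 or in an ordinary linear model, whereas *Pou2af1* and *Blnk* were called in all 18 alternatives. Lower in the same list were *Cd72* (-1.11) and *Fcmr*, which was below background in *Sox17* ed/ed uteri and at least 4.93-fold lower. Without 1 array the list held 6 to 9 called genes; it held 6 without *Sox17* ed/ed replicate 1 or 2. *Blnk*, *Fcmr* and *Cd72* are not confined to B cells in every tissue, and the cell that made them was not identified.

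The granulocyte members overlapped between the genotypes. *S100a8* and *S100a9* form calprotectin, the main cytosolic protein of neutrophils, *Mpo* and *Elane* encode granule enzymes, and *Csf3r* is the receptor for granulocyte colony-stimulating factor. None of the 5 was called by limma, and 0 had an unadjusted p under 0.05, against 5045 of all 14856 genes. *S100a9* read 9.17, 9.57 and 10.21 in controls and 9.45, 8.56 and 9.53 in *Sox17* ed/ed uteri, and *S100a8* read 7.51, 7.46 and 7.70 against 7.55, 6.31 and 7.55. *Sox17* ed/ed replicate 2 was the lowest array for both. Without that array *S100a8* had a log2 fold change of -0.0075 and *S100a9* one of -0.16, and without *Sox17* f/f replicate 3 *S100a9* had a log2 fold change of -0.19. With all arrays, the changes of -0.47 for *S100a9* and -0.42 for *S100a8* had SEs of 0.35 and 0.34, and their 95% intervals reached down to -1.33 and -1.25. *Csf3r* had a log2 fold change of 0.02 with an interval of -0.18 to 0.22, *Elane* one of -0.17 and *Mpo* one of -0.36. The single *Csf3r* probe read 15.34 to 15.56 on *Sox17* f/f arrays and 15.41 to 15.53 on *Sox17* ed/ed arrays, above every other member. Which cells gave this signal was not tested.

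Of 15 further granulocyte genes, 2 were called higher and 2 lower, against 5.9% and 6.58% of all genes. The higher ones were *Lcn2* (3.76) and *Ltf* (5.63), which uterine epithelium also secretes, and *Ltf* is the locus that carries the Cre. The lower ones were the cytokine *Il1b* (-2.61, limma adjusted p = 8.00e-05) and the formyl peptide receptor *Fpr2* (-1.19), well above background on 1 *Sox17* ed/ed array. *Fpr2* was not called without *Sox17* f/f replicate 2 or 3 or *Sox17* ed/ed replicate 1 or 2. It was also lost under normexp background correction and in an ordinary linear model. *Il1b* read 7.21, 7.56 and 7.21 in controls and 4.61, 4.88 and 4.67 in *Sox17* ed/ed uteri, the groups lying over 2 log2 units apart. The growth factor of this lineage, *Csf3*, was below background in *Sox17* ed/ed uteri and at least 2.34-fold lower. The receptor subunit *Csf2rb*, shared by IL-3, IL-5 and GM-CSF, was lower without overlap (-1.23, limma adjusted p = 0.000720). The related subunit *Csf2rb2* was also lower without overlap (-1.58, limma adjusted p = 9.18e-05).

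*Kit* had the largest change of the 40 genes tested. It encodes the receptor for stem cell factor, found on mast cells and blood progenitors and also on germ cells, melanocytes and some other cells outside the blood. It read 10.43, 10.17 and 10.05 on *Sox17* f/f arrays and 8.20, 8.41 and 8.43 on *Sox17* ed/ed arrays. Replicates differed by less than 0.4 and the genotypes by a log2 fold change of -1.87 (SE 0.12, limma adjusted p = 0.000227), a 3.66-fold decrease. *Kitl*, its ligand, had a log2 fold change of 0.22 (limma adjusted p = 0.163).

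Genes of mast cell granules did not show a change of that size. *Cpa3*, a carboxypeptidase of these granules, read 7.99, 7.01 and 7.36 in controls and 6.51, 7.04 and 7.19 in *Sox17* ed/ed uteri, with overlapping groups and a change of -0.54 (SE 0.29, limma adjusted p = 0.245). The proteases *Cma1* (-0.42), *Mcpt4* (-0.37) and *Tpsb2* (-0.22) were not called. Of 8 further mast cell and basophil genes, 2 were called lower, *Fcer1a*, on values below background, and *Hdc*. The count was 1, *Hdc* alone, under normexp background correction, with an intensity trend in limma and where all 6 arrays had to be above background. *Hdc* encodes histidine decarboxylase, the enzyme that makes histamine in mast cells and, in the uterus before implantation, in epithelium, and it changed by -5.68 (SE 0.16, limma adjusted p = 1.23e-05). Which cells carried the *Kit* signal was not tested, and the epithelium list, with 4 genes called higher and 2 lower, moved in the same arrays.

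**Figure D5:**
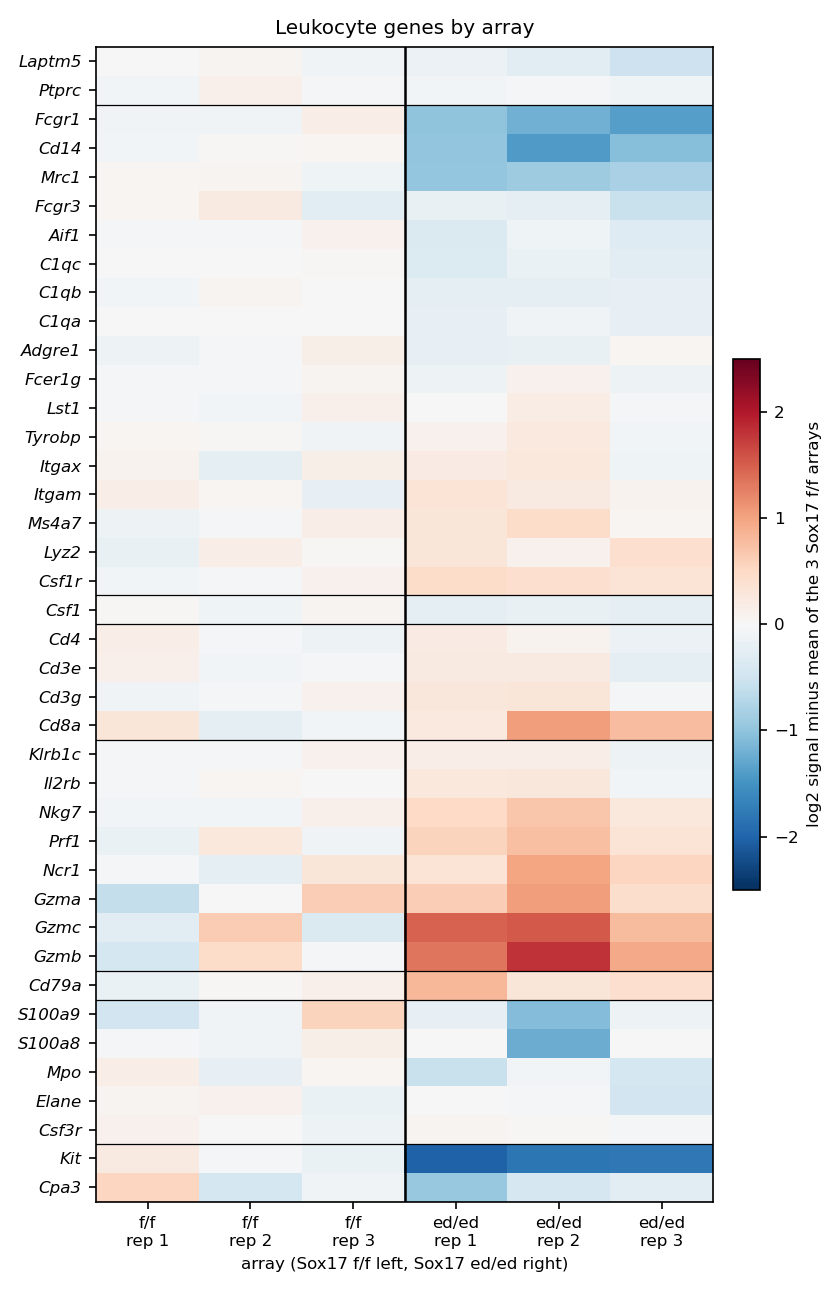
Log2 signal of the 40 tested leukocyte genes on each array, as the difference from the mean of the 3 Sox17 f/f arrays, from blue (lower) to red (higher), with black lines between lineages in the order pan-leukocyte, macrophage, Csf1, T cell, NK and cytotoxic, B cell, granulocyte and mast cell. Kit, Fcgr1, Cd14 and Mrc1 are blue on all 3 Sox17 ed/ed arrays and Gzmb and Gzmc red, while S100a8 and S100a9 are darkest on Sox17 ed/ed replicate 2.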

How the data were processed

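RNA of 6 whole uteri, 1 mouse to a sample by the labels' 3 biological samples per genotype, was hybridised to Agilent G3 Mouse GE arrays of 1 colour. The authors deposited each array's spot intensity from Feature Extraction 11.0.1.1 per the file headers (the submitters' notes name 9.1); the processed signal used here had its background subtracted and was not normalized between arrays. The deposited value table holds the same intensity averaged over spots, within 0.191%. Subtraction makes dim values uncertain on a log scale, so genes below background throughout a genotype are given as bounds, against the lowest signal well above background.

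Here log2 values were quantile normalized as the study's methods state. Outlier spots (169 to 302 an array, of 59305 that were not controls) were left out, spots of a probe were averaged, and a probe had to be well above background on 3 arrays or more. The array is annotated on mm9; 26582 of 55681 probes were named through accessions of the GRCm38.p6 gene table, 16194 are named by genome position and 12905 could not be matched. The probe with the highest mean stood for a gene. Genotypes were compared with lmFit and eBayes of limma 3.58.1 under R 4.3.3, and p-values were adjusted over the 14856 genes tested by Benjamini-Hochberg; the limits of p under 0.01 and 1.4-fold are those of the methods. An exact permutation test of 3 arrays against 3 cannot go below 0.1, which every gene without overlap reached. The number of arrays limits the precision. The steps were tested on simulated data. Promoters were searched and aligned with Python 3.11.15 and Biopython 1.88, and figures drawn with matplotlib 3.10.9.

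Every member is given, in full where it was called or its probes disagree; in the other lists called genes are named, at most 6 by size, and any further gene was chosen with its value seen. The members and lists were chosen with earlier results of these data known. Data of the study from chromatin, staining or patients were not used here.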

Additional observations from a re-analysis of the deposited data

How the results depend on the processing

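The direction of 34 of the 40 members was kept under every alternative that gave a value. The others had changes near 0 or probes that disagree. *Csf3r* turned to -0.035 under a 75th percentile shift and ran from -0.040 to 0.072 with 1 array left out, *Cd4* from -0.023 to 0.14, *Cd3e* from -0.0015 to 0.23 and *Lst1* from -0.014 to 0.11. *Klrb1c* turned to -0.033 and *Itgam* to -0.026 with the mean of the probes, and to -0.14 and -0.28 with the probe of smallest p. The 7 calls became 4 in an ordinary linear model, and 5 to 8 with 1 array left out; over all genes 1853 calls became 1669 to 2045 with 1 array left out, 2818 by adjusted p alone and 814 at 2-fold or more. The *Sox17* change ran from -2.503 to -2.39 with 1 array left out. *Kit*, *Fcgr1* and *Cd14* were called in all alternatives and *Mrc1* in all but the 2-fold limit. *Nkg7* was lost in several besides, among them the 75th percentile shift (0.43) and the deposited value table (0.48). Replicate numbers are not known to pair the mice, and same-numbered arrays did not deviate together (r = 0.06, -0.11 and -0.0002). With the replicate number as a block, 7 members and 1793 genes were called: *Nkg7* was lost and *Prf1* gained. For normexp, the median spot signal was used, since the arrays' tables used here give no mean. No scaling moved the median of all genes by over 0.1. *Cd8a*, close to background, could not be tested where all 6 arrays had to be above it.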

Other observations

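In the eosinophil list of 8 genes, *Prg2*, the major basic protein of eosinophil granules, was called higher (log2 fold change 1.26, SE 0.24, limma adjusted p = 0.0155). It read 5.11, 5.40 and 6.06 on *Sox17* f/f arrays and 6.69, 6.90 and 6.75 on *Sox17* ed/ed arrays. The surface genes *Siglecf* (0.58) and *Ccr3* (0.57) and the receptor subunit *Il5ra* (0.53) were not called, and the ribonucleases *Ear1*, *Ear2* and *Ear6* lay between -0.18 and -0.01. *Alox15*, a lipoxygenase made by eosinophils and by some epithelia and macrophages, was called lower (-1.94, SE 0.42). Of these 2 calls 1 was left without *Sox17* f/f replicate 1 or *Sox17* ed/ed replicate 2 or 3, and 0 in an ordinary linear model, while 4 genes were called without *Sox17* ed/ed replicate 1. Of 6 dendritic cell genes, the transcription factor *Batf3* was lower (-0.60), while *Flt3* (0.09), *Irf8* (0.11), *Clec9a* (0.25) and *Siglech* (0.09) were not called. *Zbtb46*, a factor of classical dendritic cells, had a log2 fold change of -0.44 (limma adjusted p = 0.0621) and was called with the mean of its probes or the probe of smallest p, which brought the list to 2.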
